A study of Mus musculus with 102 samples.

Results

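Wild-type mouse embryonic stem cells that had received Cre protein 8 days earlier were compared with mock-treated cells of the same day at CpGs measured by amplicon bisulfite sequencing. In this assay unmethylated cytosines are converted, chosen regions are amplified by PCR, and the methylation level of a CpG is the percentage of its reads in which the cytosine remains. All CpGs with a level in each of the 3 Cre and 3 mock samples entered the comparison, which left 358 of the 405 CpGs in the amplicon table, in 60 of its 65 amplicons. The other 47 CpGs lie in 5 amplicons (UMR17, ES-specific_LMR34, UMR18, Constitutive_LMR-CTCF48 and NP-specific_LMR47). Each lacked a level in 1 Cre sample (17 levels in replicate 1, 20 in replicate 2 and 10 in replicate 3) and in no mock sample.

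The samples belong to a series of 102, of which 78 are amplicon samples. The cells are C57BL6/J embryonic stem cells with intact TET genes that derive from a line homozygous for Dnmt3a and Dnmt3b alleles with floxed catalytic exons, and these alleles are shared by every group here. Cre protein was added to the medium of the Cre samples, which the labels call Dnmt3a/3b catalytic dead. The mock samples, labelled Dnmt3a/3b intact, received the dialysis buffer without Cre, and 3 wild-type samples of day 0 were not transduced, so their handling differed from that of both day 8 groups. TTKO cells, used for a single comparison below, carry the same floxed alleles and lack functional Tet1, Tet2 and Tet3. The line is a single clone, and the methods of the study describe incomplete excision, so the Cre samples can hold cells with intact alleles. No CpG of the amplicons lies in Dnmt3a, Dnmt3b, Tet1, Tet2 or Tet3, so the deletions could not be checked in these data. A lower level in every cell and a loss in part of the cells cannot be told apart in bulk DNA.

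DNMT3A and DNMT3B are the de novo methyltransferases, which place methyl groups on unmethylated CpGs. DNMT1 copies existing methylation to the new strand after replication, and the TET enzymes oxidise methylated cytosine and so open a path to its removal. In embryonic stem cells most of the genome is highly methylated (fully methylated regions, FMR), CpG-rich promoters are unmethylated (UMR), and distal regulatory elements bound by transcription factors are low-methylated regions (LMR). CTCF, an insulator protein, and REST, a repressor of neuronal genes, bind many LMRs that are low in both stem cells and neuronal progenitors, which the deposited list calls constitutive. Other LMRs are specific to embryonic stem cells (ES) or to neuronal progenitors (NP).

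The sequences of 3 amplicons among those with the largest mean differences that passed the test are shown, since the results below return to them. They are the plus strand of mm9, 5′ to 3′, from 15 bases before the first tested CpG to 15 bases after the last, and capitals mark the tested CpGs. A cg in lower case is not among the CpGs of the amplicon table. LMR81 lies at chr4:95224098-95224136, 77 bases from Fggy, a carbohydrate kinase gene. ES-specific_LMR32 lies at chr7:3349925-3350205 in an intron of Cacng7, which encodes a subunit that regulates AMPA-type glutamate receptors. REST75 (Constitutive_LMR-REST75) lies at chr5:150291050-150291282, 17870 bases from 4930588N13Rik.
LMR81: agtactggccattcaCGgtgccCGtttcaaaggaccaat
ES-specific_LMR32: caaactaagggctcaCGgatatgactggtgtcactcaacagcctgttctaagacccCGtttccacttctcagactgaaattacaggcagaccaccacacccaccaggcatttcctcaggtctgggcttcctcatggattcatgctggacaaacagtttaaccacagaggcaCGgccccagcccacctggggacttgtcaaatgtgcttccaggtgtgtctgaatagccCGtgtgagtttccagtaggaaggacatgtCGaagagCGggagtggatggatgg
REST75: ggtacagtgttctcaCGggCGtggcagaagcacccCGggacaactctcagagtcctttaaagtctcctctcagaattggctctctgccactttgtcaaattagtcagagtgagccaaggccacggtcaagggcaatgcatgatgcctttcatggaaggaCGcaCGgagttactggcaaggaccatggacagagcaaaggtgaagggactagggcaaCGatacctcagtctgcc

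Read depth was high and alike in both groups. Summed over the 358 CpGs, coverage was between 3410273 and 3571853 reads in the Cre samples and between 3137792 and 3234495 in the mock samples. The median CpG of a sample had 5848 to 7712 reads. The lowest coverage of a tested CpG was 280 reads, and 319 of the 358 CpGs had at least 1000 reads in all 6 samples. The replicates varied far more than read counting would give, with a median dispersion of 62.3 times the binomial variance, so every test below takes its error from the replicates. Reads of a PCR product do not stand for separate molecules where no molecular identifier marks them, and p-values measure only the spread between these samples, which may be technical. Levels correlated across CpGs with r = 0.976 to 0.984 between Cre replicates and 0.985 to 0.992 between mock replicates, a description over CpGs that share libraries.

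Methylation was lower after Cre than in the mock across most of the measured regions. The mean level of the 358 CpGs was 29.2%, 29.6% and 30.4% in the 3 Cre samples and 39.7%, 41.3% and 38.4% in the 3 mock samples. Every Cre sample lay below every mock sample. The group means were 29.7% ± 0.636 (SD, n = 3) after Cre and 39.8% ± 1.47 (SD, n = 3) in the mock, a difference of -10.02 percentage points with a standard error of 0.926 (p = 0.1 in a two-sided exact permutation test, which cannot go lower with 3 against 3). Each CpG was then tested on its methylated and unmethylated reads with a quasi-binomial logistic model (two-sided, dispersion moderated with limma, Benjamini-Hochberg adjustment over all 358 CpGs, threshold 0.05). By this test 137 CpGs (38.3%) were less methylated after Cre and 0 were more methylated. At an unadjusted threshold of 0.05, 190 CpGs passed, and limma on log2 odds called 123 lower and 0 higher. The log2 odds ratio (Cre over mock) had a median of -1.09, and the mean difference of a CpG ranged from -43.3 to 3.96 percentage points. At 210 CpGs (58.7%) the 3 Cre values all lay below the 3 mock values, and at 2 CpGs (0.559%) they all lay above. Leaving out mock replicate 1 reduced the calls to 77 and leaving out mock replicate 2 to 80, all of which were among the 137. Without Cre replicate 2, 107 CpGs were called, 2 of them higher after Cre.

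**Figure D1:**
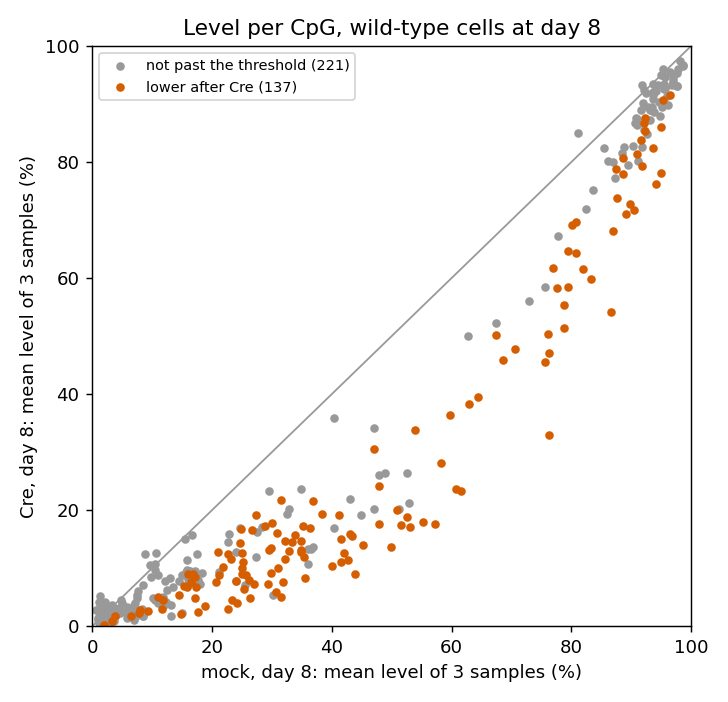
Mean methylation level per CpG in the 3 mock samples (horizontal axis, %) and the 3 Cre samples (vertical axis, %) at day 8, with a line where both are equal. The 137 CpGs that were lower after Cre (orange) lie below the line and are most frequent at intermediate mock levels, and the other CpGs (grey) crowd both ends of the scale.

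The largest mean differences among region classes were found at LMRs. In the constitutive LMRs without CTCF or REST in their name (59 CpGs in 13 amplicons), the level was 21.0%, 22.8% and 21.9% in the Cre samples and 39.2%, 41.5% and 38.7% in the mock samples, a difference of -17.9 percentage points. Of these CpGs 38 were lower after Cre, beside 38.3% of all CpGs. In the ES-specific LMRs (53 CpGs in 5 amplicons), the level was 30.3%, 32.7% and 35.5% after Cre and 50.01%, 53.2% and 44.2% in the mock. The difference was -16.3 percentage points, and 29 CpGs (54.7%) were lower. This class mean joins unlike amplicons. The 13 CpGs of ES-specific_LMR28 in Zbtb20 were highly methylated, at 82.3% at day 0, 92.9% in the mock and 88.2% after Cre. The other amplicons of the class had mock means of 26.8% to 44.4%. At the CTCF LMRs (17 CpGs in 4 amplicons), Cre samples had 19.3%, 16.3% and 16.4% and mock samples 26.4%, 32.2% and 27.8%. Of these CpGs 7 (41.2%) were lower, a share near the 38.3% of all CpGs. The Cre and mock samples did not overlap in any of these classes.

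REST LMRs had low levels in both groups. Over 98 CpGs in 18 amplicons the level was 9.12%, 10.04% and 10.5% after Cre and 18.7%, 20.0% and 17.7% in the mock. The difference of -8.90 percentage points left 52.7% of the mock level, the lowest such share among the 9 classes, and 33 CpGs (33.7%) were lower, a share near the 38.3% of all CpGs. The 50 CpGs in the 8 REST amplicons that hold the letters CAGCACC of the REST motif on either strand had a difference of -5.83 percentage points from a mock level of 15.6%. The 48 CpGs in the 10 REST amplicons without them had -12.1 percentage points from 22.2%. These letters occur in 20.7% of the 87 distinct regions of the deposited list, searched in 300 bases, and in 51.9% of its REST regions. The corresponding letters of the CTCF core, AGGNGGC, occur in 14.9% of all regions and in 33.3% of the CTCF regions. A match is a description of the sequence, and the groups with and without it were not tested against each other.

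Regions with high methylation also had lower means after Cre. The FMRs (22 CpGs in 5 amplicons) had 75.2%, 74.9% and 76.7% after Cre and 85.7%, 87.4% and 85.2% in the mock, a difference of -10.5 percentage points, and 12 of the 22 CpGs (54.5%) were lower, beside 38.3% of all CpGs. The NP-specific LMRs, which are methylated in stem cells, had 83.4%, 83.2% and 83.6% after Cre and 91.5%, 92.0% and 90.5% in the mock, a difference of -7.92 percentage points, with 11 of 35 CpGs (31.4%) lower. A methylated UMR near the tubulin gene Tuba3a differed by -5.18 percentage points with 0 of 6 CpGs lower, and a methylated CpG island in AU022751 on the X chromosome by -1.85 percentage points with 1 of 12 CpGs lower. Without Cre replicate 2, at 80.6% beside 88.7% and 89.6%, the value of the methylated UMR was -2.35, and without Cre replicate 1 that of the island was -1.11. In all 4 of these classes every Cre sample lay below every mock sample.

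Unmethylated regions stayed near the floor of the assay. Over 56 CpGs in 7 amplicons the level was 2.77%, 1.60% and 1.87% after Cre and 2.81%, 2.75% and 2.67% in the mock, so the groups overlapped (difference -0.659 percentage points, p = 0.3, two-sided exact permutation test). The difference was -1.01 without Cre replicate 1 and -0.418 without Cre replicate 2. For each of the other 8 classes the same exact permutation test gave p = 0.1, the smallest possible, and 0.1125 after adjustment over the 9 classes. Within the UMRs 6 of the 56 CpGs (10.7%) were lower, beside 38.3% of all CpGs, 4 of them in UMR11 in an intron of 1810063B07Rik. At the CpG of UMR11 with the largest difference (chr14:20901930-20901931), levels were 0.110%, 2.80% and 3.20% after Cre and 14.5%, 16.4% and 13.8% in the mock. This CpG was chosen after its values were seen.

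**Figure D2:**
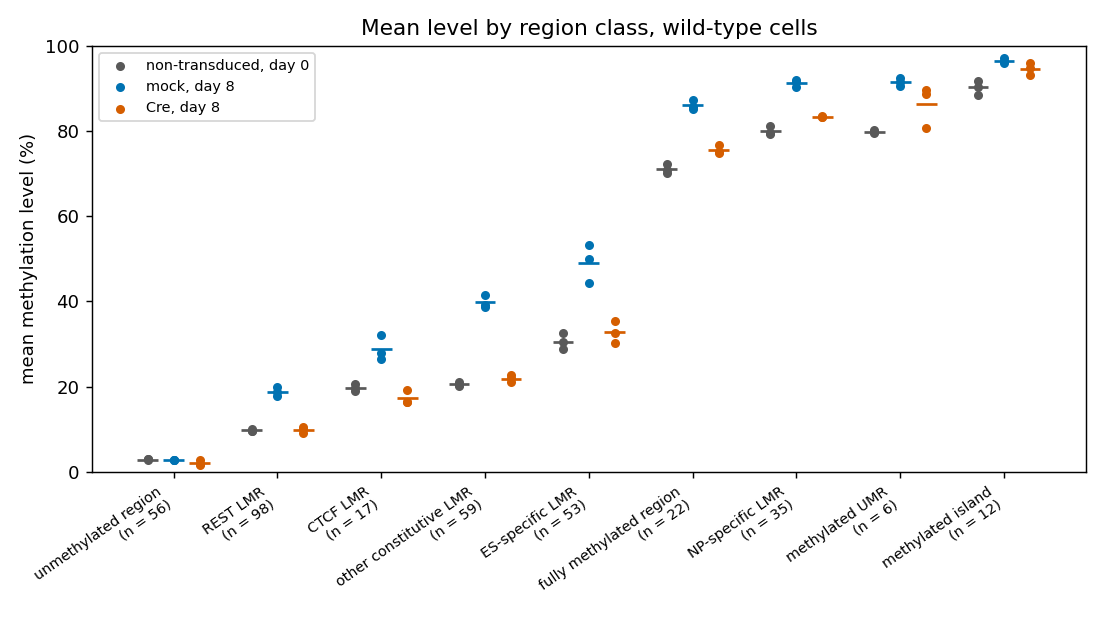
Mean methylation level (%) by region class for each of the 3 non-transduced day 0 samples (grey), 3 mock samples (blue) and 3 Cre samples (orange) of day 8, with a bar at the mean of each group and n the number of CpGs. Mock points lie above Cre points in every class but the unmethylated regions, where all 9 points lie between 1.60% and 3.05%.

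The difference depended on the level that a CpG had at day 0, which was measured in samples outside the comparison. It was -5.76 percentage points at 166 CpGs under 10% at day 0, -19.3 at 82 CpGs of 10 to 30%, -22.3 at 16 CpGs of 30 to 50% and -15.7 at 18 CpGs of 50 to 70%. At higher levels it was -6.45 percentage points at 56 CpGs of 70 to 90% and -2.29 at 20 CpGs of 90% or more. On the log2 odds scale the medians were closer, between -0.81 at 90% or more and -1.49 at 10 to 30%. CpGs lower after Cre made up 38 of 166, 56 of 82, 13 of 16, 13 of 18, 16 of 56 and 1 of 20 in the same order. These are shares of 22.9%, 68.3%, 81.2%, 72.2%, 28.6% and 5%, beside 38.3% of all CpGs. Cre and mock samples did not overlap in any bin. Differences varied widely among CpGs of a bin, from -31.3 to 3.96 percentage points under 10% and from -39.6 to -0.466 at 10 to 30%.

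**Figure D3:**
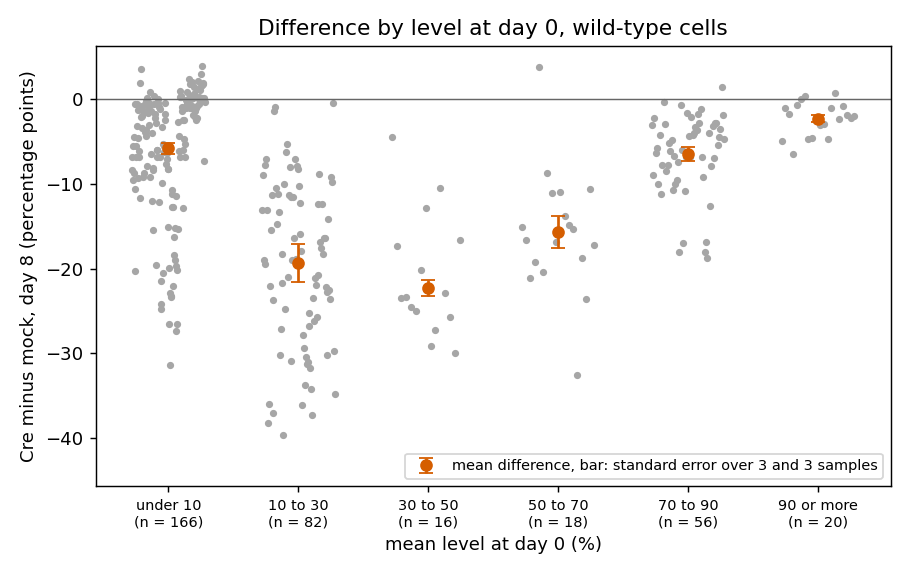
Difference of Cre minus mock at day 8 (vertical axis, percentage points) for CpGs grouped by their mean level at day 0 (horizontal axis, %), with single CpGs in grey, the bin mean in orange and its standard error over 3 and 3 samples as a bar. The means run from -5.76 in the lowest bin to -22.3 at 30 to 50% and -2.29 in the highest bin.

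CpG density was described at the 124 CpGs with a mock level of 20 to 80%, of which 89 (71.8%) were lower, beside 38.3% of all CpGs. The mock level is also a side of the comparison, so this share and the differences below depend in part on the selection. The median difference was -19.3 percentage points at 44 CpGs with 0 or 1 other CpG within 50 bases, -21.4 at 44 CpGs with 2 or 3, and -18.6 at 36 CpGs with 4 or more. Their median mock levels were 40.7%, 36.7% and 32.6%. No order by density was seen in these medians, which share amplicons and were not tested.

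The CpG with the largest difference was the first of LMR7 (chr13:28387599-28387600), intergenic and 144119 bases from Prl5a1, a gene of the prolactin family. Its level was 29.4%, 36.9% and 32.3% after Cre and 74.6%, 76.7% and 77.3% in the mock, with 1330 to 2716 reads per sample. The difference of -43.3 percentage points corresponds to a log2 odds ratio of -2.74 (standard error 0.32, adjusted p = 0.00174, quasi-binomial test). At day 0 the same CpG had 50.6%, 33.5% and 31.7%, so both Cre and day 0 lay below the mock.

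REST LMRs gave 4 of the 10 largest called differences. The last CpG of REST75 (chr5:150291266-150291267) had 17.2%, 22.0% and 13.7% after Cre and 59.4%, 60.0% and 52.1% in the mock (log2 odds ratio -2.56, standard error 0.25, adjusted p = 0.00148, quasi-binomial test). REST56 lies 196473 bases from Ajap1, which encodes an adherens junction protein. Its CpG at chr4:153053412-153053413 had 19.5%, 23.1% and 27.3% after Cre and 63.5%, 62.7% and 58.4% in the mock, and the one at chr4:153053454-153053455 had 18.0%, 15.5% and 17.8% against 57.6%, 48.6% and 52.9%. In REST61, 49338 bases from A430005L14Rik, the CpG at chr4:153281952-153281953 had 19.9%, 30.9% and 20.1% after Cre and 56.5%, 66.5% and 59.0% in the mock. The groups were far apart at all 4 CpGs, whose adjusted p lay between 0.00148 and 0.00347 (quasi-binomial test).

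ES-specific LMRs also gave 4 of them, of which 3 are described. In ES-specific_LMR32 in Cacng7, the CpG at chr7:3349940-3349941 had 24.4%, 16.5% and 15.8% after Cre and 47.7%, 61.0% and 49.1% in the mock (adjusted p = 0.0043, quasi-binomial test). Another pair lies in ES-specific_LMR33, in an intron of the zinc finger gene Zfp704, where replicates were less alike. At chr3:9601631-9601632 the Cre samples had 7.25%, 22.4% and 24.3% and the mock samples 57.0%, 67.0% and 41.7% (adjusted p = 0.0171, quasi-binomial test). At chr3:9601592-9601593 they had 6.08%, 18.6% and 27.5% against 57.2%, 64.2% and 33.5% (adjusted p = 0.0405, quasi-binomial test), and this call was lost without any of 5 of the 6 samples in turn, with the replicate block (adjusted p = 0.0585) and with limma on log2 odds (adjusted p = 0.0508). The call at the former CpG was lost without Cre replicate 2 (adjusted p = 0.064) and without mock replicate 1 (adjusted p = 0.0519, quasi-binomial test). Another of the 10 is the second CpG of LMR81 near Fggy (chr4:95224120-95224121), with 5.06%, 8.87% and 13.0% after Cre and 44.2%, 46.8% and 40.4% in the mock, the most negative log2 odds ratio of the 10 (-3.02, standard error 0.30).

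No CpG passed the test with a higher level after Cre, so the 4 named on that side were taken by the smallest unadjusted p. All lie in UMRs close to transcription starts. In the transcribed but not coding part of B3galt4, a gene for a glycolipid galactosyltransferase, the CpG at chr17:34088215-34088216 had 3.83%, 3.22% and 3.08% after Cre and 2.34%, 2.26% and 1.07% in the mock (adjusted p = 0.0794, quasi-binomial test). The other 3 lie in UMR19 at Tmem106b, which encodes a lysosomal membrane protein. At the one with the largest difference (chr6:13019776-13019777), Cre replicate 1 had 10.3% and replicates 2 and 3 had 3.36% and 2.07%, against 0.422%, 0.598% and 2.87% in the mock. Its neighbour at chr6:13019770-13019771 had 3.24%, 3.03% and 3.80% against 2.26%, 0.724% and 2.37%, and is with the B3galt4 CpG the other of the 2 whose Cre values all lay above the mock. At chr6:13019597-13019598 the Cre values of 5.92%, 0.816% and 1.56% overlapped with those of the mock at 0.314%, 0.642% and 0.947%.

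At high levels the smallest differences among CpGs with 80% or more at day 0 were found at NP-specific_LMR37, 190001 bases from the Iroquois homeobox gene Irx4, and in a coding exon of Zbtb20, a zinc finger repressor. At chr13:73207941-73207942 the Cre samples had 93.9%, 95.7% and 95.3% and the mock samples 94.9%, 94.6% and 95.3%. At the adjacent CpG (chr13:73207943-73207944) they had 92.0%, 91.8% and 93.4% against 92.0%, 91.6% and 92.6%. The Zbtb20 CpG (chr16:43609816-43609817) had 97.3%, 88.4% and 94.5% against 92.4%, 94.4% and 94.1%. The groups overlapped at all 3, with differences between -0.250 and 0.356 percentage points and adjusted p between 0.904 and 0.987 (quasi-binomial test). They were chosen for their small difference, which is therefore a description.

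CpGs of an amplicon share reads, so counts were also summed over each amplicon and tested in the same way. Of the 60 amplicons 47 (78.3%) were less methylated after Cre and 0 more, by the quasi-binomial test adjusted over amplicons. At an unadjusted threshold of 0.05, 50 passed, and limma on log2 odds called 48 lower and 0 higher. The 3 Cre means lay below the 3 mock means in 51 amplicons (85%). Lower amplicons were 12 of 13 constitutive LMRs without CTCF or REST in their name, 16 of 18 REST LMRs, 3 of 4 CTCF LMRs, 4 of 5 ES-specific LMRs, 5 of 6 NP-specific LMRs, 5 of 5 FMRs and 2 of 7 UMRs. The methylated UMR (adjusted p = 0.0585) and the methylated island (adjusted p = 0.0583, quasi-binomial test) did not pass.

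LMR81 had the largest amplicon difference, -32.2 percentage points, with 4.90%, 10.01% and 14.03% after Cre and 42.7%, 45.1% and 37.8% in the mock over its 2 CpGs (log2 odds ratio -2.79, standard error 0.33, adjusted p = 9.86e-04, quasi-binomial test). ES-specific_LMR32 had 16.04%, 11.7% and 13.97% against 38.9%, 49.6% and 39.8%, and all 6 of its CpGs were lower. In both amplicons, whose sequences are given above, the groups were separated at each tested CpG. REST75 had 8.58%, 17.3% and 16.2% against 39.4%, 41.3% and 37.6%, with 5 of its 6 CpGs lower.

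LMR46 lies in an intron of Akap6, which encodes an anchoring protein for protein kinase A, and had 16.8%, 16.3% and 14.5% after Cre and 37.5%, 40.0% and 39.3% in the mock. The first CpG of LMR59 lies 34 bases after the last of LMR46, in the same intron, and LMR59 had 5.41%, 3.01% and 4.14% against 25.6%, 24.9% and 24.02%. LMR7 differed by -22.3 percentage points over 3 CpGs, which ranged from the -43.3 of its first CpG to -6.46 at its last. ES-specific_LMR33 in Zfp704 differed by -27.9 percentage points but did not pass (adjusted p = 0.0571, quasi-binomial test), with Cre replicate 1 at 4.44% beside 24.4% and 20.7% and mock replicate 3 at 26.9% beside 52.0% and 54.3%.

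Among amplicons with a mock mean of 20 to 80% and at least 3 CpGs, the smallest differences were at LMR63 and REST68. LMR63, 32653 bases from Tram1, a gene of protein translocation into the endoplasmic reticulum, had 20.0%, 17.4% and 16.7% after Cre and 26.2%, 24.4% and 25.5% in the mock. REST68, in an intron of Tssc1, had 20.6%, 19.2% and 22.8% against 30.7%, 31.7% and 28.8%. Both still passed the test (adjusted p = 0.00491 and 0.00136, quasi-binomial test). Of the 21 amplicons of this level and size, 20 passed, and the exception was ES-specific_LMR33. They were selected by the mock mean, a side of the same comparison, so this count depends in part on the selection. Other LMRs with several lower CpGs were LMR40, 62896 bases from the collagen gene Col1a1 (9 of 14 CpGs, -20.95 percentage points), ES-specific_LMR27 in a coding exon of Slx1b, a subunit of a structure-specific endonuclease (14 of 20, -12.2), and LMR23 near 3830408C21Rik (6 of 6, -14.8). Among FMRs the largest difference was -15.9 percentage points at FMR4 in an intron of the calcium pump gene Atp2b2, where all 4 CpGs were lower, and the smallest was -5.98 at FMR8 in Traf3, a gene of TNF receptor signalling.

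CpGs of the same amplicon differed among themselves. Over the 54 amplicons with at least 3 tested CpGs, the median range between the largest and smallest difference was 13.2 percentage points, and the widest was 37.7 at REST56. There the 8 CpGs had mock levels from 2.52% to 77.5% and differences from -38.2 to -0.482 percentage points. In 44 amplicons every tested CpG had a lower mean after Cre, and in 18 every CpG had its 3 Cre values below the 3 mock values.

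**Figure D4:**
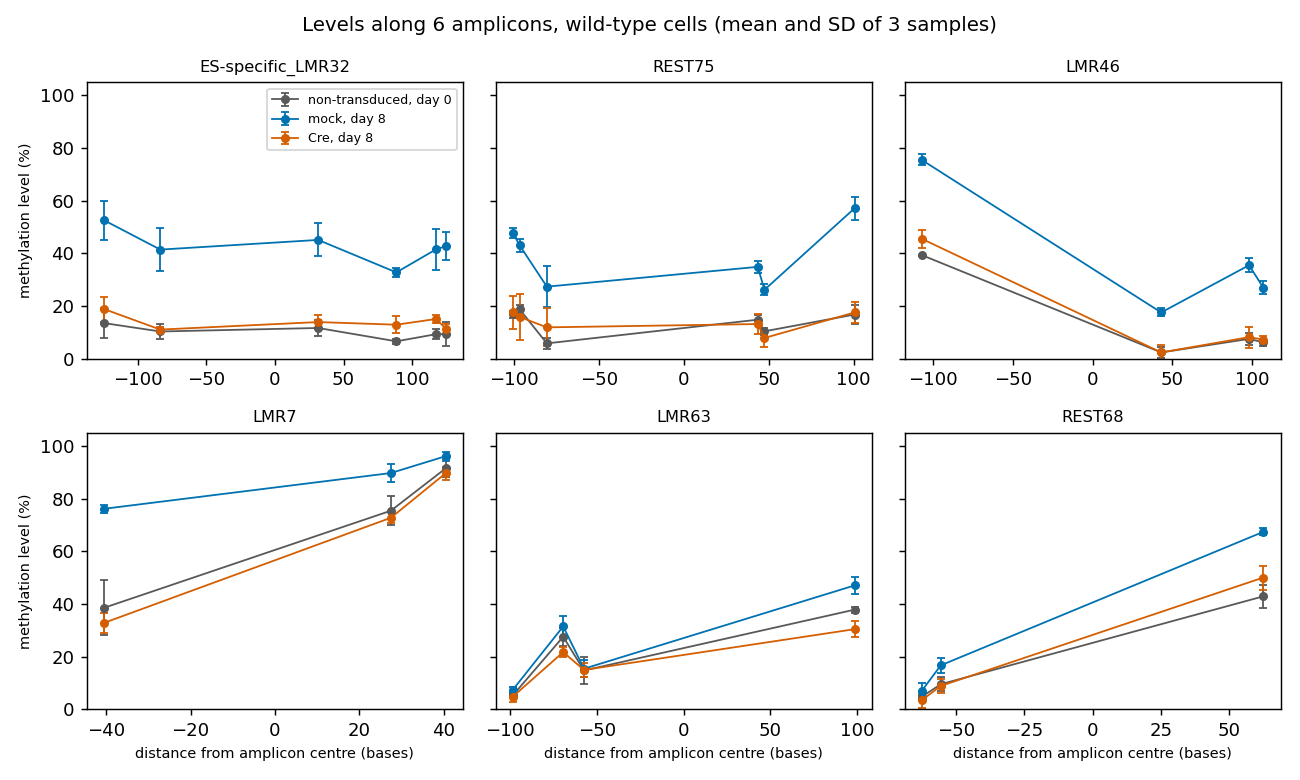
Methylation level (%) at each tested CpG against its distance from the amplicon centre (bases) in 6 amplicons, for day 0 (grey), mock (blue) and Cre (orange), as mean and SD of 3 samples. In ES-specific_LMR32, REST75 and LMR46 the mock lies above Cre at every CpG and Cre stays near day 0, in LMR7 the gap narrows from -43.3 to -6.46 percentage points along the amplicon, and LMR63 and REST68 have the smallest mean differences, -7.36 and -9.58 percentage points.

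The day 0 samples show on which side the groups lay. Over the 358 CpGs the non-transduced cells had 28.9%, 28.1% and 28.6%, the Cre samples at day 8 lay 1.22 percentage points above their mean and the mock samples 11.2 points above it (p = 0.1 for each, two-sided exact permutation test). Both comparisons share the day 0 samples, so their values are only set side by side. Of the 405 CpGs tested between mock and day 0, 253 (62.5%) were higher in the mock and 9 (2.22%) lower by the quasi-binomial test. Between Cre and day 0, 0 of 358 CpGs (0%) passed the same test in either direction, 46 passed at an unadjusted threshold of 0.05, and limma on log2 odds also called 0. A CpG that did not pass is not thereby shown to be equal. At 250 of the 358 CpGs the 3 mock values all lay above the 3 day 0 values. The 3 Cre values all lay above them at 46 CpGs and all below them at 40.

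By class, the mock lay above day 0 by 19.2 percentage points in the constitutive LMRs without CTCF or REST in their name, 18.5 in ES-specific LMRs, 15.02 in FMRs, 11.3 in NP-specific LMRs, 9.08 in REST LMRs and 9.04 in CTCF LMRs. For Cre the values in the same order were 1.31, 2.22, 4.52, 3.39, 0.187 and -2.41 percentage points. In REST LMRs the Cre samples had 9.90% ± 0.723 (SD, n = 3) and the day 0 samples 9.71% ± 0.348 (SD, n = 3). In FMRs the Cre samples had 75.6% ± 0.929 (SD, n = 3), all above the day 0 samples at 71.1% ± 1.12 (SD, n = 3). UMRs had 2.74% ± 0.0697 in the mock and 2.89% ± 0.179 at day 0 (SD, n = 3 each).

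Over the 278 CpGs with a level in all 39 wild-type samples, the day 0 mean was 28.3% ± 0.460 (SD, n = 3, as for each value here). The mock stood at 38.6% ± 2.56 on day 4 and 38.8% ± 1.27 on day 8, then at 35.1%, 32.2% and 30.7% on days 10, 13 and 17, and ended at 30.4% ± 0.461 on day 29. Cre stood at 33.4% ± 0.991 on day 4 and 29.3% ± 0.959 on day 8, and ended at 15.9% ± 0.191 on day 29. Days 4 and 8 thus had the highest mock levels of the time course, and day 8 was followed by lower levels in both groups. The labels name no batch, so the day cannot be told apart from any difference in handling or culture between the samples of different days, including between the mock samples of days 4 and 8 and those of later days. This bears on the size of the day 8 difference and on the comparison with day 29.

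**Figure D5:**
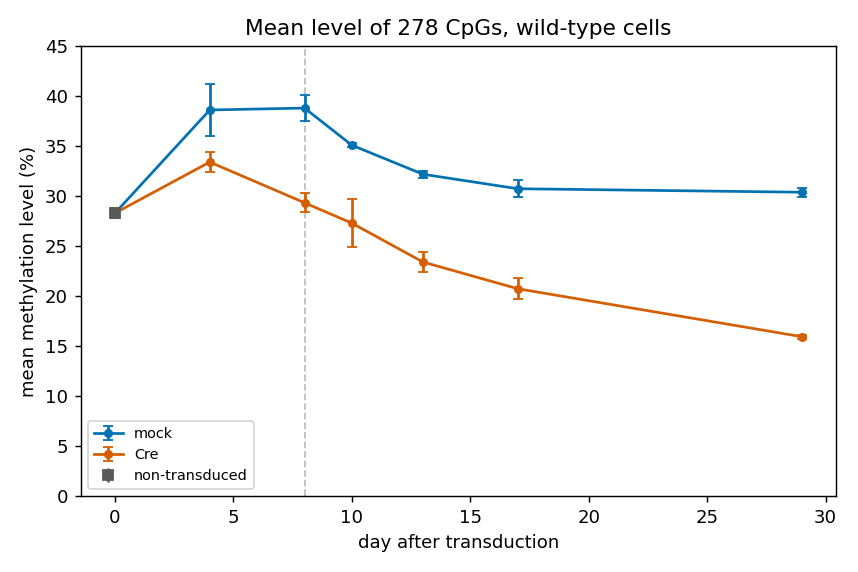
Mean methylation level (%) of 278 CpGs against the day after transduction in wild-type cells, for mock (blue), Cre (orange) and non-transduced cells (grey square), as mean and SD of 3 samples, with a dashed line at day 8. The mock stands at 38.6% and 38.8% at days 4 and 8 and at 30.4% at day 29, and Cre passes from 33.4% at day 4 through 29.3% at day 8 to 15.9% at day 29.

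The effect of Cre at day 8 was compared with that at day 4 by the interaction of treatment and day. Over the 325 CpGs with a level in all 12 samples, the difference of Cre minus mock was -9.95 percentage points at day 8 and -5.69 at day 4. No CpG passed (0 of 325, 0%, quasi-binomial interaction test), 29 passed at an unadjusted threshold of 0.05, and limma on log2 odds called 1. In ES-specific LMRs the differences were -16.3 and -1.84 percentage points, with mock replicates at day 4 that varied by an SD of 8.22, and in CTCF LMRs they were -11.5 and -11.9.

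At day 29 the mean difference between Cre and mock was larger. Over 345 CpGs the difference was -9.86 percentage points at day 8 and -14.3 at day 29. The interaction was more negative at day 29 at 65 CpGs (18.8%) and less negative at 3 CpGs (0.87%, quasi-binomial interaction test). It is taken on the odds scale, so a more negative value need not be a larger difference in percentage points. At the called CpGs of LMR23 that difference was smaller at day 29. NP-specific LMRs held 19 of these 65 CpGs, with differences of -7.92 percentage points at day 8 and -35.5 at day 29 over all 35 CpGs. Constitutive LMRs without CTCF or REST in their name held 18 of their 53 CpGs, with mean differences of -17.7 and -18.9 from mock levels of 39.6% at day 8 and 24.1% at day 29. In REST LMRs, 4 of 98 CpGs were more negative and 1 less, and the mean differences were -8.90 and -6.71 percentage points from mock levels of 18.8% and 11.4%. FMRs had -11.1 and -31.3 percentage points over 15 CpGs, 4 of them more negative, and the methylated UMR near Tuba3a -5.18 and -31.1 over 6 CpGs, also 4 of them more negative. CTCF LMRs had -11.4 and -16.03 percentage points over 17 CpGs, again 4 of them more negative. The class differences themselves were not tested between the days. The 3 CpGs with a less negative effect at day 29 lie in UMR11 in 1810063B07Rik, in UMR14 in B3galt4 and in REST77 in the calcium channel gene Cacna1a. The calls in both directions, 68 in all, numbered 40 without Cre replicate 1 of day 29 and 45 without mock replicate 1 of day 8. Less negative calls numbered 0 without Cre replicate 1 of day 29 and without Cre replicate 2, mock replicate 1 or mock replicate 2 of day 8, and 1 with the replicate block.

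In TTKO cells, which lack TET activity, the mean difference at day 8 was the smaller value. Over the 254 CpGs with a level in all 78 amplicon samples it was -9.13 percentage points in wild-type cells (Cre 29.9% ± 1.12, mock 39.02% ± 1.32) and -5.87 in TTKO cells (Cre 37.0% ± 0.174, mock 42.8% ± 1.16; SD, n = 3 each). The day 0 means of the same CpGs were 28.7% ± 0.555 in wild-type and 41.9% ± 0.452 in TTKO cells (SD, n = 3 each), so that in TTKO cells the mock lay near day 0 and Cre below it. The order of the lines was not the same on every day, with differences of -7.46, -8.78 and -9.85 percentage points in wild-type and -8.17, -10.4 and -12.3 in TTKO cells on days 10, 13 and 17. Of the 350 CpGs tested for the interaction of treatment and line, 1 (0.286%) passed, with a more negative effect in wild-type cells, and 42 passed at an unadjusted threshold of 0.05 (quasi-binomial interaction test). It is the first CpG of LMR59 in Akap6 (chr12:54133872-54133873). Its level was 5.95%, 5.34% and 4.02% after Cre and 33.1%, 31.3% and 30.4% in the mock in wild-type cells, and 69.0%, 74.9% and 69.8% against 78.5%, 79.98% and 81.3% in TTKO cells (log2 ratio of odds ratios -2.38, standard error 0.41, adjusted p = 0.0313). Without TTKO mock replicate 1 or replicate 3, 3 CpGs were called, and without any of the other 10 samples 0 were. With the replicate block and at 1000 or more reads in every sample 0 were called, and limma on log2 odds called 1. Constitutive LMRs without CTCF or REST in their name differed by -19.8 percentage points in wild-type and -11.6 in TTKO cells (35 CpGs), and REST LMRs by -9.49 and -6.13 (70 CpGs). CTCF LMRs went the other way round, with -7.90 (standard error 5.20) and -11.2 (1.92) over the 3 CpGs of CTCF53. So did the methylated UMR, with -5.18 (standard error 2.90) and -6.66 (0.94) over 6 CpGs. The Cre and mock means of CTCF53 overlapped in wild-type cells. Over all 17 CTCF CpGs the median log2 ratio of odds ratios between the lines was -0.017. These class values were not tested.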

How the data were processed

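Amplicon bisulfite sequencing was used for 3 Cre, 3 mock and 3 non-transduced wild-type samples, grouped by their labels. The authors used QuasR with Rbowtie for alignment against mm9, took levels from AmpliconBiSeq and deposited, per CpG and sample, the coverage as counts of reads and the level as a fraction, with no level under 100 reads. Coverage times level gave whole methylated reads (within 1e-06 reads) at 100% of the deposited values. CpGs were placed on NCBIM37 (mm9), where all 405 are a C followed by a G, and on GENCODE M1. Counts, with 0.5 added, were fitted per CpG in R 4.3.3 with limma 3.58.1, with a dispersion moderated by squeezeVar and not allowed under 1, and the scripts were tested on simulated data. Means were compared in python 3.11.15 with scipy 1.17.1. Members and lists were chosen with earlier results of these data known. Named CpGs are the 10 largest differences among called, non-overlapping CpGs, at most 2 per amplicon, 4 on the other side and 3 with the smallest difference at 80% or more at day 0. Named amplicons are the 6 largest differences among called amplicons and the 2 smallest among those with a mock mean of 20 to 80% and at least 3 CpGs. A named CpG and its amplicon are not reported here. Other amplicons named are examples chosen after their values were seen. The deposited start and end positions of the region list gave classes and locations. SureSelect data and the authors' rates were not used here.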

Additional observations from a re-analysis of the deposited data

Results flagged for a closer look

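The Cre effect in wild-type cells differed between day 29 and day 8 at 68 CpGs by the interaction term of the quasi-binomial model with limma's moderated dispersion (Benjamini-Hochberg threshold 0.05), and between wild-type and TTKO cells at day 8 at 1 CpG, the first of LMR59 in Akap6. For the latter comparison 0 CpGs were called with the replicate block, at 1000 or more reads, and in 10 of the 12 fits that left out 1 sample.

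Among the 17 CpGs named by rule, 4 had an effect at day 29 that differed from day 8, all more negative. Of all 345 CpGs tested, 65 (18.8%) were more negative at day 29, and the 2 shares were not tested against each other. The UMR11 CpG in 1810063B07Rik, named after its values were seen, had a less negative effect at day 29, with a difference of -3.27 percentage points beside -12.9 at day 8 (log2 ratio of odds ratios 2.10, adjusted p = 0.0386, quasi-binomial test). This call was lost without any of 4 samples in turn, since 0 CpGs were then called less negative (Cre replicate 1 of day 29, and Cre replicate 2 and mock replicates 1 and 2 of day 8). With the replicate block 1 CpG was called less negative. At the LMR7 CpG near Prl5a1 the log2 ratio of odds ratios was -2.32 (adjusted p = 0.00933, quasi-binomial test), with 5.11%, 3.37% and 5.39% after Cre and 58.2%, 66.4% and 63.1% in the mock at day 29. At the adjacent CpGs of NP-specific_LMR37 near Irx4 it was -2.06 (adjusted p = 0.0133) and -1.72 (adjusted p = 0.034, quasi-binomial test). The CpG with -2.06 had 69.9%, 78.2% and 70.2% after Cre and 93.1%, 91.7% and 93.6% in the mock at day 29. At the Zbtb20 CpG of ES-specific_LMR28 it was -2.82 (adjusted p = 0.01, quasi-binomial test), with 47.9%, 34.5% and 47.6% against 82.5%, 86.1% and 86.9% at day 29. The last 3 CpGs were named for their small difference at day 8. Those day 8 values enter the interaction, so the selection favours a larger effect at day 29. The adjusted p of these 3 CpGs are therefore descriptions only.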

How the results depend on the processing

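The direction of Cre against mock at day 8 was the same under every alternative for the mean over all CpGs and for all 9 classes and 6 bins. Within the UMRs it was mixed. There 29 of 56 CpGs had a lower mean after Cre, UMR11 differed by -3.46 percentage points, and UMR13, UMR14 and UMR19 had higher means after Cre. Leaving out each replicate gave 77 to 137 called CpGs and 37 to 46 called amplicons, -10.7 to -9.26 percentage points for the mean over all CpGs, -6.82 to -2.35 for the methylated UMR, -2.5 to -1.11 for the methylated island, -1.01 to -0.418 for the UMRs, 0 to 1 CpGs for the interaction with day 4, 0 to 3 for that with TTKO, 40 to 74 for that with day 29, and 0 to 1 for Cre and 209 to 257 for mock against day 0. The lowest count for day 29 came without Cre day 29 replicate 1, and 45 without mock day 8 replicate 1. Leave-one-out fits with 2 samples in a group pool the spread with the other groups. Limma on log2 odds called 1 CpG for the interaction with day 4. The interaction with TTKO had 0 calls with the replicate block and 0 at 1000 or more reads. Weighting amplicons equally gave -7.52 percentage points under 10% at day 0. Of the CpGs named for small differences, limma gave 0.041 at the CpG of NP-specific_LMR37 at chr13:73207941-73207942 and 0.18 at the Zbtb20 CpG on the log2 scale, the other sign. Leaving out a replicate gave -0.13 to 0.14 at the former, -0.42 to 0.64 at the Zbtb20 CpG and -0.056 to 0.11 at the adjacent CpG of NP-specific_LMR37 (chr13:73207943-73207944). The cause of these changes was not tested.

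Replicate numbers did not pair the samples: deviations of same-numbered Cre and mock samples correlated across CpGs with r = -0.330, 0.115 and -0.0413. With the replicate block 100 CpGs and 43 amplicons were called, 95 of the CpGs among the 137, and the paired mean difference was -10.02 percentage points (p = 0.25 in an exact permutation test of the pairs, the lowest it can give). CpGs of 5 to 95% alone gave 157 calls of 263, and a spread from all 39 wild-type samples 168.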
